A study of Homo sapiens with 6 samples.

Results

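The genes described here encode the proteins that choose and license DNA replication origins, fire them, and copy DNA at the fork. They are 50 named genes, chosen by symbol, and the array platform's annotation pairs 91 of the 54675 probe sets (short probes pooled to read 1 transcript) with exactly 1 of them. Transcript levels were measured in Hep3B, an established human hepatocellular carcinoma cell line, on 6 Affymetrix HG-U133Plus2 arrays. The 3 miR-17 TuD arrays came from cells stably expressing a decoy RNA against the microRNA miR-17 (TuD stands for tough decoy, a transcript whose open sites bind and hold the microRNA). The 3 NC TuD arrays came from cells expressing a control decoy. Both lines were made by exposing cells to viral particles (multiplicity of infection 5, polybrene, 48 hours) and selecting with puromycin. After 2 weeks the resistant colonies were pooled, so each group rests on 1 pooled line. Nothing in the labels makes the 3 arrays of a line separate cultures, so the p-values rest on array-to-array spread that may be technical only. Sample descriptions also carry a code with 72HR on all 6 arrays, PLUSDOX on the miR-17 TuD arrays and NODOX on the NC TuD arrays. What the code stands for is not stated in the labels, and its effect cannot be told apart from that of the decoy.

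Replication is prepared before S phase, when the origin recognition complex (ORC) with CDC6 and CDT1 loads the MCM helicase onto DNA, and geminin (GMNN) blocks CDT1 afterwards so that no origin is licensed again. Kinases then fire the origin by joining CDC45 and the GINS complex to the helicase. Polymerases, the sliding clamp PCNA, its loader RFC and the single-strand binding protein RPA copy the DNA, while ribonucleotide reductase and thymidylate synthase supply nucleotides. Many of these genes are transcribed as cells enter S phase under E2F transcription factors, and E2F1 is a textbook target of the miR-17 family. In RNA from a bulk culture, more cells in S phase and more transcript per cell cannot be told apart.

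The comparison asked which transcripts differ when miR-17 is held by a decoy. MicroRNAs find their targets mainly through the seed, bases 2 to 8 of the mature strand. In RefSeq's microRNAs on GRCh38.p14, 8 mature human microRNAs share the seed AAAGUGC of miR-17. The 6 from the miR-17 cluster and its relatives are shown because they share the seed of the targeted microRNA, given in capitals. The remaining ones are hsa-miR-519d-3p and hsa-miR-526b-3p. Mature microRNA levels were not analysed here, so the extent of the inhibition is not known from these data.
hsa-miR-17-5p, chr13:91350618-91350640, plus strand: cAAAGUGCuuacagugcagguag
hsa-miR-20a-5p, chr13:91351072-91351094, plus strand: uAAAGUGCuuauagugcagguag
hsa-miR-106a-5p, chrX:134170244-134170266, minus strand: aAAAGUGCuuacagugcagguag
hsa-miR-20b-5p, chrX:134169850-134169872, minus strand: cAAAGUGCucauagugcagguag
hsa-miR-106b-5p, chr7:100094043-100094063, minus strand: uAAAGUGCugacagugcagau
hsa-miR-93-5p, chr7:100093815-100093837, minus strand: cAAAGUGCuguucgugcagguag

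Promoter sequence was not used to choose the genes. RefSeq promoters of GRCh38.p14, 250 bases before to 50 after a start site, were listed for 44 of the 50 genes. The others were GINS4, MCM4, MCM5, POLD3, RPA2 and RPA3. The E2F-type words TTTCCCGC, TTTCGCGC, TTTGCCGC and TTTGGCGC were searched on both strands, and overlapping matches were counted separately. At least 1 promoter held such a word in 21 of the 44 genes (47.7%), against 707 of 11241 tested genes with an entry (6.29%). By role, they were 7 of 12 licensing genes, 5 of 8 genes of firing and the fork helicase, 4 of 8 polymerase and primase genes, and 3 of 9 genes of the clamp, its loader, RPA and the lagging strand, 1 of 3 nucleotide supply genes and 1 of 4 chromatin genes. None of the 4 genes with an entry that rose (ORC1, CDC45, RRM2 and POLD2) held one, which says only that these letters are not in these windows. A match is a description of the sequence and not a measured site.

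4 promoters are shown because they set the words beside the measured differences, with matches in capitals. MCM6 had the most matches, 4, as overlapping pairs that begin 152, 148, 90 and 86 bases before the start site, and its transcript differed by 0.024 on the log2 scale. MCM2 had an overlapping pair that begins 3 and 7 bases into the transcript, and it differed by 0.062. GMNN, which fell, had 1 match, 80 bases before the downstream of its start sites. ORC1, which rose, had no exact match, and near matches were not searched.
MCM6 promoter, GRCh38.p14, chr2:135876394-135876693, minus strand: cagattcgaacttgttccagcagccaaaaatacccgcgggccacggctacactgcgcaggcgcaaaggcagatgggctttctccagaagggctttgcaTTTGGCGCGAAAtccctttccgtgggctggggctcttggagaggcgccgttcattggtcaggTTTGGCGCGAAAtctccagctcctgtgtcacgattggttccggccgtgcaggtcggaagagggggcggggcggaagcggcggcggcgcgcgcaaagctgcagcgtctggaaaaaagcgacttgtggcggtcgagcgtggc
MCM2 promoter, GRCh38.p14, chr3:127598161-127598460, plus strand: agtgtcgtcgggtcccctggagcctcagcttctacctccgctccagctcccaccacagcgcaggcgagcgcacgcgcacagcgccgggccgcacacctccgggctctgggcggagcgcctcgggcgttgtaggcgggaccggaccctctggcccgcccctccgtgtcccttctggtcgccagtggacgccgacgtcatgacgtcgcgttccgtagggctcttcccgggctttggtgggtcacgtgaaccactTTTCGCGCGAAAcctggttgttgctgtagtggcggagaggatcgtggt
GMNN promoter, GRCh38.p14, chr6:24775163-24775462, plus strand: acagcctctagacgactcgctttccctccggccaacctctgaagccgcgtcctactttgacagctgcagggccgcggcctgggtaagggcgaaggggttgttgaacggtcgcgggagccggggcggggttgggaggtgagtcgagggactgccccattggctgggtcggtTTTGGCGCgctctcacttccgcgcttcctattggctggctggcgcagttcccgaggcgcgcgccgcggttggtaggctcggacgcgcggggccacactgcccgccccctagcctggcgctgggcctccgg
ORC1 promoter, GRCh38.p14, chr1:52404374-52404673, minus strand: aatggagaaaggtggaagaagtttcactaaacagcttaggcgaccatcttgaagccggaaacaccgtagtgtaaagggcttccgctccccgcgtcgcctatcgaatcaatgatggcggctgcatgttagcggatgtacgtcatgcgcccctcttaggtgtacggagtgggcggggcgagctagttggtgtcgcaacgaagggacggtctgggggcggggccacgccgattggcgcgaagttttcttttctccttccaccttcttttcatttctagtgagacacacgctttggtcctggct

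All values are the authors' deposited log2 expression values. The arrays correlated at r from 0.9989 to 0.9993 within a group and from 0.9977 to 0.9984 between groups over the 32768 probe sets tested. Hepatocyte lineage markers were expressed: 7 of the 8 listed genes were measured, and all 7, ALB and AFP among them, passed the filter on low values. In limma 6 of these 7 fell: APOA1 differed by -1.31, AFP by -1.27, FGB by -1.26, APOB by -0.75, TTR by -0.47 and ALB by -0.21, with adjusted p from 0.00338 for APOA1 to 0.0184 for TTR. SERPINA1 differed by 0.13 and did not pass (adjusted p = 0.0912 in limma). Within 0.01 of the lowest value on every array lay the endothelial markers CDH5 and VWF, the leukocyte markers CD3E and PTPRC and the fibroblast markers COL3A1 and DCN. Of the same lists, endothelial PECAM1 passed the filter at 2.43 in both groups, and leukocyte CD14 passed it at 3.71 in miR-17 TuD arrays and 3.85 in NC TuD arrays. Of the 5 fibroblast markers, COL1A1, COL1A2 and LUM were expressed, and the summed level of the list ran from 12.91 to 13.41 in miR-17 TuD arrays and from 12.85 to 12.89 in NC TuD arrays. The summed level of the hepatocyte list, set mainly by its brightest genes, ran from 16.80 to 16.86 in miR-17 TuD arrays and from 16.98 to 17.03 in NC TuD arrays. The leukocyte list summed to 4.31 to 4.52 in miR-17 TuD arrays and 4.52 to 4.55 in NC TuD arrays. The part of these shifts in the results below was not tested.

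Most replication genes differed little between the lines. Each gene was read by its brightest probe set, and all 50 passed the filter on low values. In limma with Benjamini-Hochberg adjustment over 13949 genes and a threshold of 0.05, RPA2, ORC1, CDC45, RRM2 and POLD2 rose, GMNN fell, and 44 did not pass. The called genes were 12% of the 50, near the 11.4% called among all genes (6.78% higher and 4.60% lower). Among the 8311 genes at least as bright as the dimmest of the 50, 16.8% were called. The median difference was 0.022 on the log2 scale, against 0.00056 over all genes. With quantile normalization these medians were 0.0106 and 0.0107, so the gap between them depends on the scaling. Of the 50 genes, 33 (66%) differed by less than 0.1, against 57.7% of all genes, a share not matched for level. The mean level was above 13 in 14 of the 50 genes. Whether bright probe sets understate differences was not tested. No gene of the set differed by more than 0.40, a 1.32-fold change. The 3 miR-17 TuD values lay wholly above the NC TuD values in 11 genes and wholly below in 5, together 32%, against 33.0% of all genes (18.3% above and 14.7% below).

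**Figure D1:**
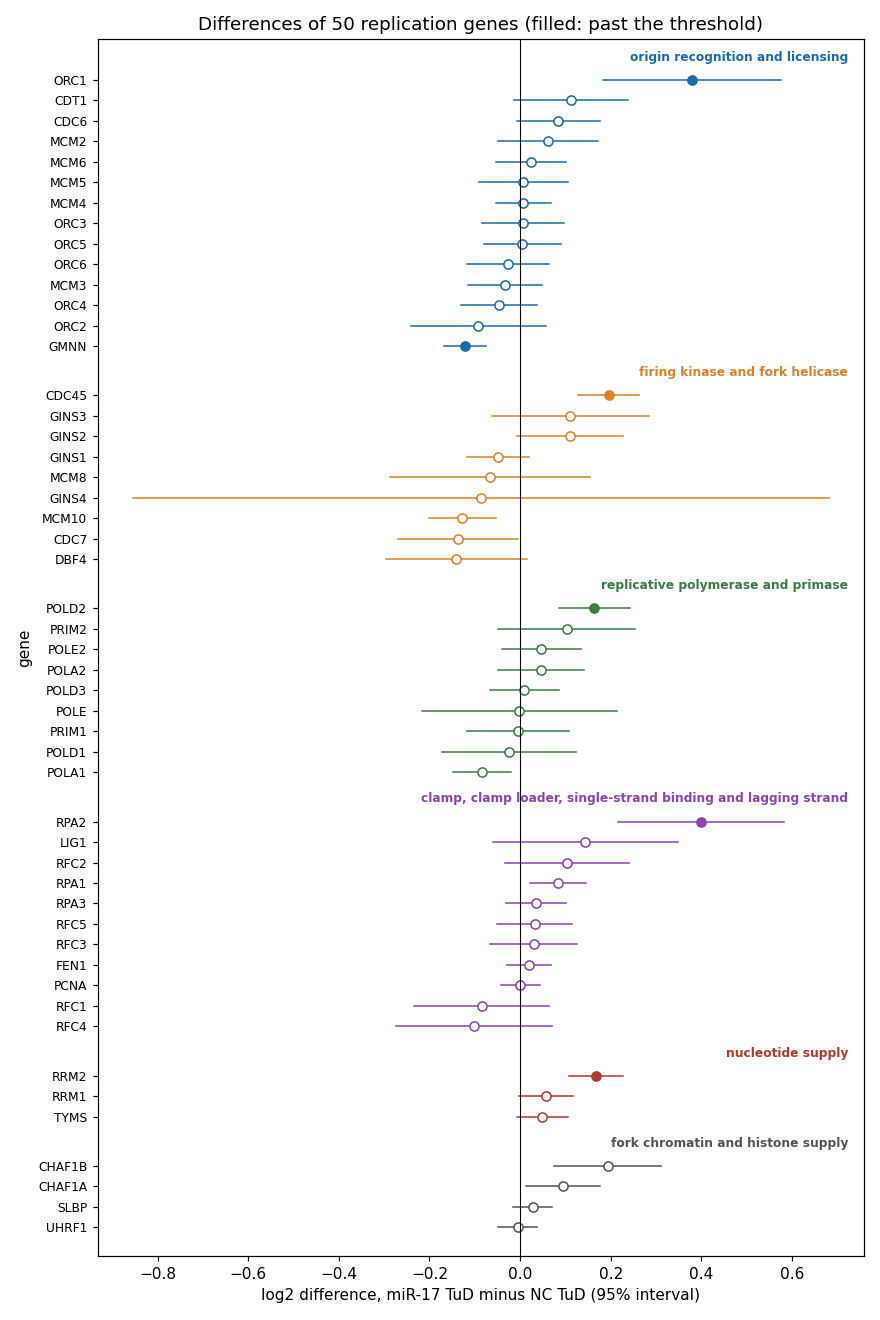
The x axis gives the log2 difference, miR-17 TuD minus NC TuD, with its 95% interval for each of the 50 genes in 6 role groups, and filled points passed the threshold. RPA2 and ORC1 stand farthest right at 0.40 and 0.38, while the interval of GINS4 is the widest, from -0.85 to 0.68.

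Of the 14 origin recognition and licensing genes, 1 rose, 1 fell and 12 did not pass, with a median of 0.0064. ORC1, an ATPase subunit of ORC, which in human cells is known to vary over the cell cycle, was 8.61, 8.52 and 8.70 in miR-17 TuD arrays, against 8.24, 8.12 and 8.33 in NC TuD arrays. All miR-17 TuD arrays were above all NC TuD arrays, and replicate 3 was the highest array of its group in both. The gene averaged 8.61 ± 0.092 in miR-17 TuD arrays and 8.23 ± 0.11 in NC TuD arrays (SD, n = 3 each) and rose 1.30-fold (log2 difference 0.38, SE 0.075, adjusted p = 0.0445 in limma). The other ORC subunits, which build the complex with ORC1, did not pass. ORC3 differed by 0.0058, ORC5 by 0.0045, ORC6 by -0.027, ORC4 by -0.046 and ORC2 by -0.092, with 95% intervals that ran from -0.24 at the lowest to 0.10 at the highest. Whether ORC1 differed more than its partners was not tested.

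GMNN, the inhibitor of CDT1, was 13.87, 13.84 and 13.81 in miR-17 TuD arrays, against 13.97, 13.96 and 13.96 in NC TuD arrays. The groups did not overlap, and the NC TuD arrays lay within a narrow band. It averaged 13.84 ± 0.03 in miR-17 TuD arrays and 13.96 ± 0.0078 in NC TuD arrays (SD, n = 3 each), 1.09-fold lower in miR-17 TuD (log2 difference -0.12, SE 0.017, adjusted p = 0.0226 in limma). CDT1, the licensing factor that geminin restrains, was 11.47, 11.55 and 11.64 in miR-17 TuD arrays, against 11.40, 11.46 and 11.45 in NC TuD arrays, without overlap, but the difference of 0.11 did not pass (adjusted p = 0.216 in limma). CDC6, which loads MCM with CDT1, differed by 0.085 (adjusted p = 0.208 in limma). It passed without s_at and x_at probe sets (log2 difference 0.14, adjusted p = 0.0269 in limma, over the alternatives 0.0269 to 0.419). Centring each array on its median ended the GMNN call (log2 difference -0.099, adjusted p = 0.133 in limma).

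The MCM subunits, which form the body of the helicase, showed small differences. The measured differences were 0.062 for MCM2, 0.024 for MCM6, 0.0075 for MCM5, 0.007 for MCM4 and -0.033 for MCM3, and none passed. MCM3 was called lower without miR-17 TuD replicate 3 (log2 difference -0.067, adjusted p = 0.0266 in limma, over the alternatives 0.0266 to 0.827). MCM4 shows how close the arrays were, with 12.78, 12.74 and 12.72 in miR-17 TuD arrays and 12.75, 12.76 and 12.71 in NC TuD arrays. The groups overlapped, and the 95% interval of its difference ran from -0.053 to 0.067. MCM7, the remaining subunit, is not among the 50 genes and hosts the microRNAs miR-106b and miR-93 whose seeds are shown above. It was 13.14, 13.09 and 13.14 in miR-17 TuD arrays, against 13.06, 12.98 and 13.03 in NC TuD arrays. These groups did not overlap, but the difference of 0.099 did not pass (95% interval 0.026 to 0.17, adjusted p = 0.0983 in limma).

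Of the 9 genes of origin firing and the fork helicase, 1 rose and 8 did not pass, with a median of -0.066. CDC45, which joins MCM and GINS in the active helicase, was 10.12, 10.16 and 10.19 in miR-17 TuD arrays, against 10.00, 9.95 and 9.94 in NC TuD arrays. Every miR-17 TuD array was above every NC TuD array. It averaged 10.16 ± 0.034 in miR-17 TuD arrays and 9.96 ± 0.033 in NC TuD arrays (SD, n = 3 each) and rose 1.15-fold (log2 difference 0.20, SE 0.026, adjusted p = 0.0189 in limma). The GINS genes, whose products bind beside CDC45, had differences of both signs: GINS3 differed by 0.11, GINS2 by 0.11, GINS1 by -0.048 and GINS4 by -0.087, and none passed. GINS4 was 9.19, 9.07 and 8.55 in miR-17 TuD arrays and 9.51, 8.86 and 8.69 in NC TuD arrays. Its arrays scattered within both groups by more than those of any other of the 50 genes, and its interval leaves its difference undetermined in sign and size.

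The firing factors MCM10, CDC7 and DBF4 had the lowest differences of the 50 genes. MCM10, which helps the assembled helicase to start, was 10.40, 10.32 and 10.31 in miR-17 TuD arrays, against 10.45, 10.49 and 10.48 in NC TuD arrays. The kinase CDC7 was 9.74, 9.82 and 9.71 in miR-17 TuD arrays, against 9.84, 9.98 and 9.86 in NC TuD arrays. Its activating partner DBF4 was 10.53, 10.54 and 10.35 in miR-17 TuD arrays, against 10.66, 10.58 and 10.60 in NC TuD arrays. In all 3 genes, named for their low differences, the miR-17 TuD arrays lay wholly below the NC TuD arrays, as in 14.7% of all genes. The log2 differences were -0.13 for MCM10 (95% interval -0.20 to -0.054), -0.14 for CDC7 (-0.27 to -0.0056) and -0.14 for DBF4 (-0.30 to 0.014). None passed, with adjusted p = 0.0563, 0.167 and 0.213 in limma. MCM10 was called lower with array weights (adjusted p = 0.0372 in limma) and without miR-17 TuD replicate 1 (adjusted p = 0.0242 in limma, over the alternatives 0.0242 to 0.232). MCM8, a helicase that acts with MCM9 in recombination, differed by -0.066 (95% interval -0.29 to 0.15).

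Of the 9 polymerase and primase genes, 1 rose and 8 did not pass, with a median of 0.0095. POLD2, an accessory subunit of polymerase delta, which copies the lagging strand, was 13.07, 13.04 and 13.13 in miR-17 TuD arrays, against 12.93, 12.88 and 12.94 in NC TuD arrays. The groups did not overlap, and replicate 2 was the lowest array in both. It averaged 13.08 ± 0.044 in miR-17 TuD arrays and 12.92 ± 0.033 in NC TuD arrays (SD, n = 3 each) and rose 1.12-fold (log2 difference 0.16, SE 0.03, adjusted p = 0.0378 in limma). The catalytic subunit POLD1 differed by -0.024 (95% interval -0.17 to 0.12) and the accessory subunit POLD3 by 0.0095 (-0.066 to 0.085). Of polymerase alpha, which starts each new strand with primase, the catalytic gene POLA1 was 9.84, 9.90 and 9.88 in miR-17 TuD arrays, against 9.98, 9.97 and 9.92 in NC TuD arrays. All of its miR-17 TuD arrays were below the NC TuD arrays, but the difference of -0.084 did not pass (adjusted p = 0.104 in limma). Its partner POLA2 differed by 0.047, the primase genes PRIM1 and PRIM2 by -0.0042 and 0.10, the leading strand polymerase gene POLE by -0.0015 and its subunit gene POLE2 by 0.047. The 3 NC TuD values of POLE agreed closely (9.68, 9.69 and 9.68), whereas its miR-17 TuD values ranged widely (9.51, 9.71 and 9.82).

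Of the 11 genes of the clamp, its loader, RPA and the lagging strand, 1 rose and 10 did not pass, with a median of 0.033. RPA2, the middle subunit of the single-strand binding protein and the one phosphorylated in the cell cycle and on damage, had the largest difference of the 50 genes. It was 11.65, 11.60 and 11.81 in miR-17 TuD arrays, against 11.30, 11.21 and 11.34 in NC TuD arrays. The lowest miR-17 TuD array was well above the highest NC TuD array. The gene averaged 11.68 ± 0.11 in miR-17 TuD arrays and 11.28 ± 0.069 in NC TuD arrays (SD, n = 3 each) and rose 1.32-fold (log2 difference 0.40, SE 0.07, 95% interval 0.22 to 0.58, adjusted p = 0.0344 in limma). RPA1, the large DNA-binding subunit, was 14.13, 14.09 and 14.17 in miR-17 TuD arrays, against 14.05, 14.03 and 14.05 in NC TuD arrays. These values did not overlap either, but the difference was 0.084 (95% interval 0.022 to 0.15, adjusted p = 0.0983 in limma). RPA3, the small subunit, differed by 0.034 (-0.032 to 0.10). The intervals of RPA1 and RPA3 end below the lower bound of RPA2. RPA2 was singled out for its large difference, and that choice favours such a gap. A test of the difference between subunits was not made.

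PCNA, the sliding clamp that holds polymerases on DNA, was 14.58, 14.63 and 14.58 in miR-17 TuD arrays and 14.60, 14.59 and 14.59 in NC TuD arrays. Its groups overlapped, with a difference of 0.0006 and a 95% interval of -0.042 to 0.043, the narrowest of the 50 genes. The loader genes differed by 0.10 for RFC2, 0.033 for RFC5, 0.03 for RFC3, -0.084 for RFC1 and -0.10 for RFC4, and none passed. On the lagging strand, the flap nuclease gene FEN1 differed by 0.02 and the ligase gene LIG1 by 0.14 (95% interval -0.061 to 0.35, adjusted p = 0.315 in limma). LIG1 was 9.76, 9.89 and 10.04 in miR-17 TuD arrays and 9.81, 9.72 and 9.73 in NC TuD arrays, with its highest value on miR-17 TuD replicate 3 and overlapping groups.

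Of the 3 genes of nucleotide supply, 1 rose and 2 did not pass, and all 3 differences were above 0. RRM2, the small subunit of ribonucleotide reductase, whose level limits the enzyme in S phase, was 14.16, 14.10 and 14.10 in miR-17 TuD arrays, against 13.95, 13.97 and 13.94 in NC TuD arrays. The groups did not overlap. It averaged 14.12 ± 0.038 in miR-17 TuD arrays and 13.95 ± 0.014 in NC TuD arrays (SD, n = 3 each) and rose 1.12-fold (log2 difference 0.17, SE 0.023, adjusted p = 0.0198 in limma). The large subunit RRM1 was 14.23, 14.27 and 14.23 in miR-17 TuD arrays, against 14.22, 14.17 and 14.16 in NC TuD arrays, and its difference of 0.058 did not pass (adjusted p = 0.19 in limma). TYMS, which makes thymidylate, differed by 0.049 (adjusted p = 0.229 in limma).

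None of the 4 genes of chromatin at the fork passed, with a median of 0.062. CHAF1B, a subunit of the histone chaperone CAF-1, was 10.11, 10.09 and 10.23 in miR-17 TuD arrays, against 10.00, 9.92 and 9.94 in NC TuD arrays. Its groups did not overlap, and the difference was 0.19 (95% interval 0.076 to 0.31, adjusted p = 0.0634 in limma). It passed with quantile normalization (adjusted p = 0.047 in limma), median centring (adjusted p = 0.0188) and the stricter filter at the 60th percentile (adjusted p = 0.0374), over a range of 0.0188 to 0.196. CHAF1A, the large subunit of CAF-1, differed by 0.095 (adjusted p = 0.134 in limma), also without overlap, and passed with averaged probe sets (adjusted p = 0.0231, over the alternatives 0.0231 to 0.328). SLBP, which binds histone mRNA, differed by 0.028, and UHRF1, which reads newly copied methylated DNA, by -0.0055.

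**Figure D2:**
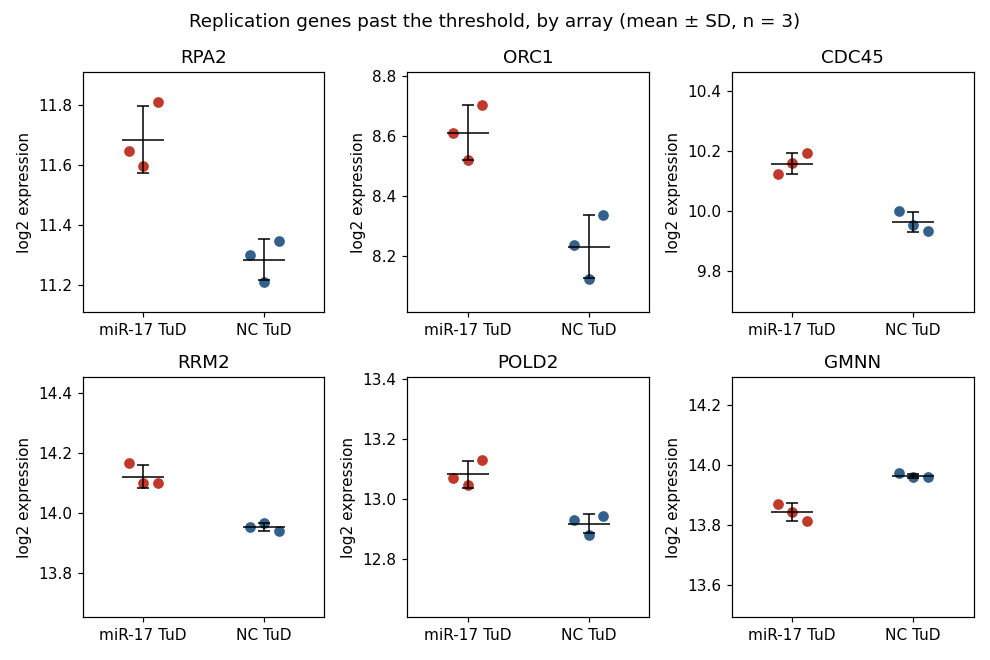
Each panel shows log2 expression of 1 gene past the threshold by array, with miR-17 TuD left and NC TuD right, horizontal marks for the mean and bars for the SD (n = 3 each), and all panels span the same log2 range. In RPA2, ORC1, CDC45, RRM2 and POLD2 the miR-17 TuD points lie above the NC TuD points, and in GMNN below them.

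The 6 calls were lost in part or in whole when 1 array was left out. Such fits also have fewer degrees of freedom, and these effects were not separated. Refitting with 1 array left out each time gave 6 fits. None of the 6 genes passed in every one, and ORC1 and POLD2 passed in none of them (adjusted p from 0.0707 to 0.137 for ORC1 and from 0.0571 to 0.115 for POLD2 in limma). The number that rose was 3 when miR-17 TuD replicate 3 was left out, 2 when replicate 1 was, and 0 when replicate 2 was or when 1 of the NC TuD arrays was. CDC45, RRM2 and GMNN passed when miR-17 TuD replicate 1 or 3 was left out, and RPA2 when replicate 3 was. The directions of the 6 genes did not change in any fit. Calls over all genes fell in these fits too, to 216 to 719 higher and 148 to 569 lower. With all arrays they were 946 and 642. With no filter on low values, RRM2, CDC45 and GMNN passed, and RPA2 (adjusted p = 0.0697 in limma), ORC1 (adjusted p = 0.0877) and POLD2 (adjusted p = 0.0729) did not.

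**Figure D3:**
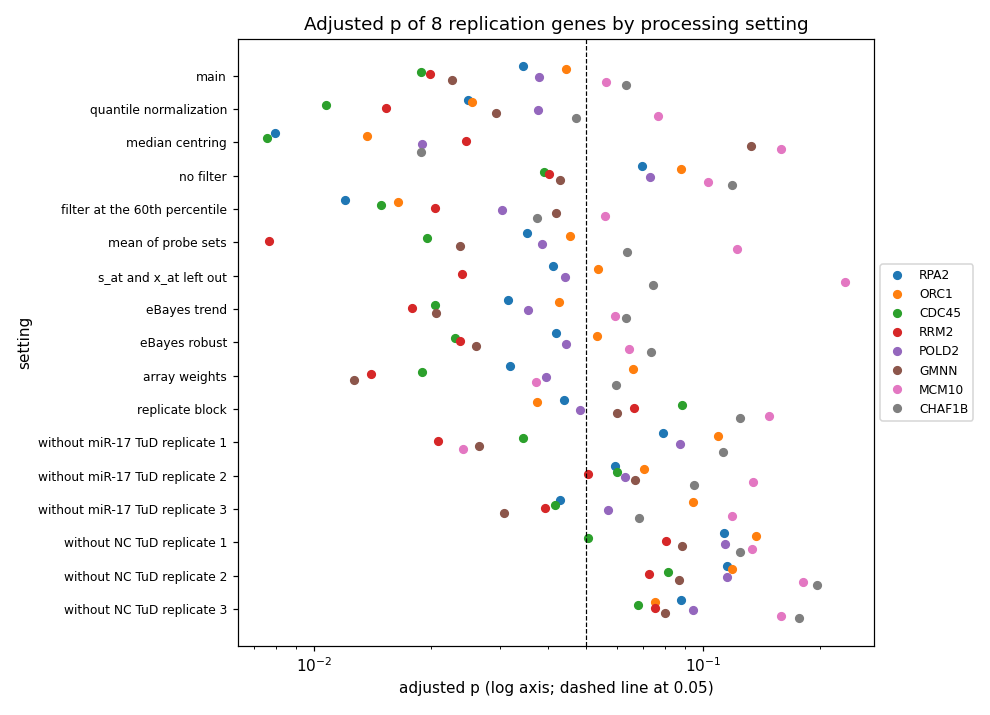
The x axis gives the adjusted p of limma on a log scale under each setting for the 6 genes past the threshold and for MCM10 and CHAF1B, chosen after their values were seen because they came closest to it. Points left of the dashed line at 0.05 passed. No point lies left of it in the fits without NC TuD replicates 1, 2 or 3 or without miR-17 TuD replicate 2.

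Several probe sets of a gene gave a check of the gene values. Of the 6 called genes, only RRM2 had more than 1 past the filter. The probe sets of CDC45 and GMNN below are those already used for the genes. Of the 91 probe sets, 5 lay at the lowest value of every array and 86 passed the filter, and 25 genes had more than 1 that passed. Adjusted over all 32768 probe sets, 8 of the 86 passed (9.3%), against 5.83% of all probe sets. The 7 that were higher (3.35% over all) read CDC45, CDC6, CHAF1A, RPA1, TYMS and, with both of its probe sets, RRM2. The 1 that was lower (2.48% over all) read GMNN. The shares over all probe sets include many dim ones and are not matched for level. Among genes, 11.4% of all were called, and 16.8% of the 8311 at least as bright as the dimmest of the set. Whether 9.3% exceeds the share among probe sets of matched level was not tested. The dimmer RRM2 probe set was 13.45, 13.43 and 13.45 in miR-17 TuD arrays, against 13.12, 13.13 and 13.08 in NC TuD arrays. Its log2 difference of 0.33 (SE 0.018, adjusted p = 0.00783 in limma) was larger than the 0.17 of the brighter one, so the size of the RRM2 rise depends on the probe set. The dimmer CDC6 probe set was 12.46, 12.40 and 12.47 in miR-17 TuD arrays, against 12.30, 12.31 and 12.30 in NC TuD arrays, without overlap (log2 difference 0.14, adjusted p = 0.0333 in limma). CHAF1A reached 0.16 (adjusted p = 0.0307), RPA1 0.091 (adjusted p = 0.0487) and TYMS 0.075 (adjusted p = 0.0208) on a probe set other than the brightest. In this larger family of tests RPA2 (adjusted p = 0.0506), POLD2 (adjusted p = 0.0541) and ORC1 (adjusted p = 0.0639 in limma), each read by 1 probe set, did not pass. Probe sets of 1 gene differed by a median of 0.058, and 9 of the 25 genes had differences of both signs, RPA1 and TYMS among them. The TYMS probe set below 0 lay near the lowest value, at 2.20 in miR-17 TuD arrays and 2.26 in NC TuD arrays. The brighter TYMS probe sets differed by 0.049 and 0.075. In ORC5 and POLA2 too, only a dim probe set was below 0 (2.17 and 2.94 in miR-17 TuD arrays). The RPA1 probe set below 0 was brighter, at 8.59 in miR-17 TuD arrays. All 3 MCM10 probe sets were below 0, from -0.13 to -0.10.

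**Figure D4:**
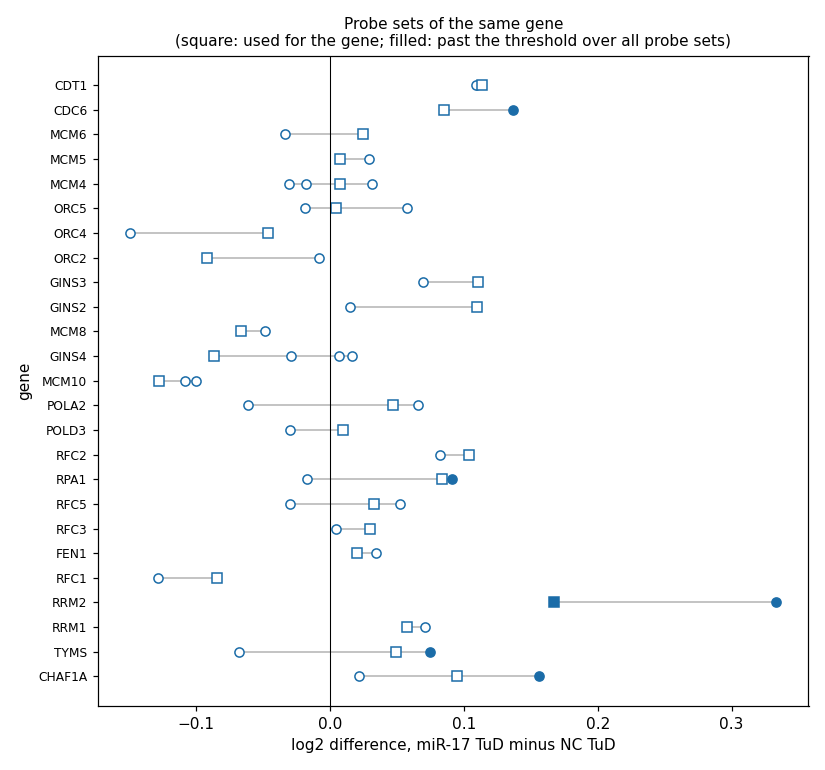
For the 25 genes with more than 1 probe set past the filter, each mark is the log2 difference, miR-17 TuD minus NC TuD, of 1 probe set, squares are the probe sets used for the gene and filled marks passed over all probe sets. The RRM2 marks lie farthest apart, at 0.17 and 0.33.

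The arrays of the miR-17 TuD line varied more among themselves. The SD was larger in miR-17 TuD than in NC TuD arrays in 39 of 50 genes (78%), against 64.7% of all genes. Dim genes with an SD of 0 in both groups, such as PECAM1, lower the share over all genes. Median SDs were 0.055 in miR-17 TuD arrays and 0.032 in NC TuD arrays, against 0.065 and 0.041 over all genes. The miR-17 TuD array farthest from its group mean was replicate 3 in 25 of the 50 genes (50%), replicate 1 in 17 and replicate 2 in 8, against 38.1%, 37.6% and 24.4% of all genes. Replicate 3 held the highest miR-17 TuD value in 25 genes, RPA2, ORC1 and LIG1 among them, and the lowest in 17, MCM8, DBF4 and GINS4 among them. Set against the NC TuD mean, the median of the 50 genes was 0.015, 0.027 and 0.040 in miR-17 TuD replicates 1, 2 and 3.

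**Figure D5:**
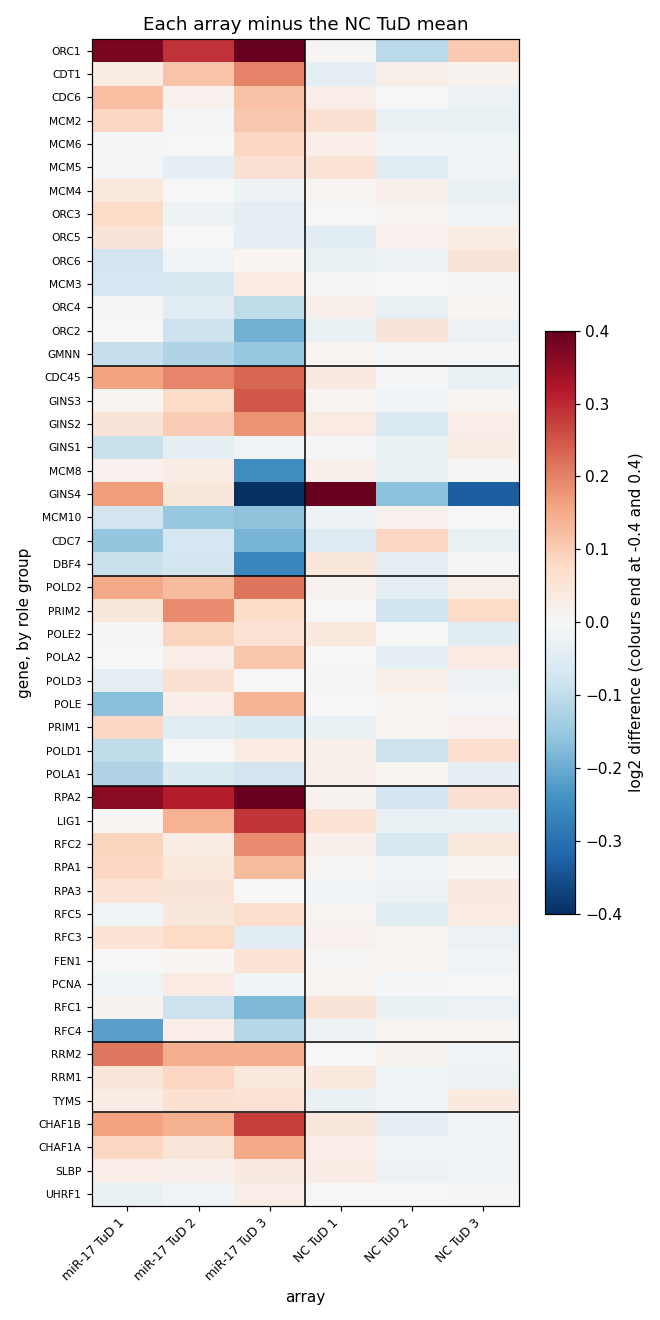
Rows are the 50 genes by role group, columns the 6 arrays, and colour gives each array's log2 value minus the NC TuD mean of that gene, with colours ending at -0.4 and 0.4. ORC1 and RPA2 are red on all 3 miR-17 TuD arrays, and the strongest blues of the miR-17 TuD columns are in replicate 3, in GINS4, DBF4 and MCM8.

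A list of 57 further replication genes gives the wider pathway. Of the 54 that were tested, 4 rose, 2 fell and 48 did not pass, which is 11.1% against 11.4% of all genes, with a median of 0.030. Upstream of origin firing, cyclin E activates CDK2. The cyclin E gene CCNE2 was 12.22, 12.28 and 12.25 in miR-17 TuD arrays, against 11.92, 11.99 and 11.93 in NC TuD arrays, and rose 1.24-fold (adjusted p = 0.00923 in limma). Of the 6, only CCNE2 passed in all 6 fits that left out 1 array. CCNE1 was 11.74, 11.76 and 11.92 in miR-17 TuD arrays, against 11.55, 11.44 and 11.46 in NC TuD arrays, and rose 1.25-fold (adjusted p = 0.0434 in limma). RNASEH2A, the catalytic subunit of RNase H2, which cuts RNA paired with DNA, rose by 0.19 on the log2 scale (adjusted p = 0.0392 in limma). DONSON, a helicase assembly factor, rose by 0.11 (adjusted p = 0.0219 in limma). Over the alternatives, CCNE1 lost its call in 9 of 16, RNASEH2A in 9 of 16 and DONSON in 7 of 15, whereas CCNE2 kept its call in all 16.

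The genes that fell act in firing and in chromatin. TICRR, which CDC45 needs to join origins, was 7.18, 7.24 and 7.23 in miR-17 TuD arrays, against 7.37, 7.43 and 7.39 in NC TuD arrays, without overlap (log2 difference -0.18, SE 0.025, adjusted p = 0.0219 in limma). HELLS, a chromatin remodeller that helps to maintain DNA methylation, was 10.61, 10.63 and 10.53 in miR-17 TuD arrays, against 10.89, 10.91 and 10.84 in NC TuD arrays. It was the larger fall of the pair (log2 difference -0.29, SE 0.034, adjusted p = 0.0142 in limma), and with averaged probe sets it differed by -0.098 and did not pass (adjusted p = 0.151). The numbers that rose and fell were 1 and 0 without NC TuD replicate 1 or 2, and 1 and 1 without NC TuD replicate 3 or miR-17 TuD replicate 2.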

How the data were processed

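Transcripts of 3 miR-17 TuD and 3 NC TuD samples were measured on Affymetrix arrays. The authors deposited 1 log2 value per probe set and array. RMA and GCRMA are named, per the submitters' processing notes, with no version or role, and no genome build is stated there. Those deposited log2 values spanned 2.12 to 16.3, with 34.9% to 35.4% at the lowest value. That floor hides changes of dim transcripts, but all 50 genes lay well above it. The number of arrays limits the precision. Symbols came from GEO's platform annotation, updated through Entrez identifiers with the RefSeq genes of GRCh38.p14. Of 54675 probe sets, 62 controls were left out, 41091 of the others had 1 symbol, 1801 several and 11721 none. Probe sets with a mean at or under the 40th percentile (2.14) were left out. This cut lies close to the floor, so dim genes such as PECAM1 (2.43) stayed in the shared fit and adjustment. With no filter, this cut and the 60th percentile, the adjusted p of ORC1 was 0.0877, 0.0445 and 0.0164 in limma. It was 0.0697, 0.0344 and 0.012 for RPA2, and 0.0429, 0.0226 and 0.0418 for GMNN. A gene was read by its probe set of the highest mean. Suffixes s_at and x_at, carried by 22 of the 50 probe sets used, mark probes that related transcripts can share.

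The test was limma 3.58.1 under R 4.3.3 (lmFit, eBayes, both directions, adjusted over all genes), tested on simulated data. A difference is the miR-17 TuD mean minus the NC TuD mean. The genes and lists were chosen with earlier results of these data known. All 50 genes could be named. Array values were given for those past the threshold, the one with the largest difference in each role group, and others chosen after their values were seen. From the further list, genes past the threshold and MCM7 were named. Alternatives changed the scaling, filter, probe set rule, variance model, replicate block and arrays used.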

Additional observations from a re-analysis of the deposited data

How the results depend on the processing

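Of 786 values of the 50 genes under 16 alternatives, 739 kept their side of the threshold, 39 lost a call, 8 gained one and none reversed a call, while 36 values, called in neither fit, changed sign. Median centring gave a median of 0.045 for the 50 genes and 0.023 for all genes, in place of 0.022 and 0.00056, with 0 of the 50 lower, 1426 of all genes higher and 7 further replication genes higher. The split over all genes was then 1426 higher to 717 lower, against 946 to 642. With no filter, 2 of the 50 were higher, 484 and 305 of all genes were higher and lower, and 2 further genes were higher. The 60th percentile filter gave 7 further genes higher, and averaged probe sets 1 further gene lower. Without s_at and x_at probe sets, 36 of the 50 could be tested and 0 were lower. GMNN and CDC45, each read only by an s_at probe set, could not be tested in this setting. There, 520 and 407 of all genes were higher and lower, and 2 further genes were higher. Array weights gave 2 of the 50 lower. The replicate block gave 3 of the 50 higher and 0 lower, 467 and 355 of all genes higher and lower and 1 further gene higher. RPA2, ORC1 and POLD2 passed with the block, while CDC45, RRM2 and GMNN did not. Replicate numbers were not taken as pairs, since deviations from the group means correlated at 0.0315, 0.13 and 0.101 between same-numbered arrays and 1 value is under 0.1. The cut at 0.1 is not set by the design. Each array correlated best with its own number, a hint from the data and not from the design. Whether the arrays are paired is not known. Over the fits that left out 1 array, 0 to 3 of the 50 were higher and 0 to 2 lower, 216 to 719 of all genes higher and 148 to 569 lower, 1 to 5 further genes higher and 0 to 2 lower, and the median of the 50 was 0.017 to 0.035. Fewer arrays leave fewer degrees of freedom in those fits.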
